A study of Mus musculus with 10 samples.

Results

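Embryoid bodies (EBs) are floating aggregates of mouse embryonic stem cells (ESCs) in which differentiation begins. EBs were compared with ESCs by RNA sequencing of 6 of the 10 libraries of the study. The libraries were chosen by their labels alone: 4 EB libraries and 2 ESC libraries, with Strap genotype as a covariate, so that the comparison asked which transcripts changed with differentiation in both genotypes. The groups were 9-day-old Strap-/- EBs (KO EBs, n = 2), 9-day-old wild type EBs (WT EBs, n = 2), Strap-/- ESCs (KO ESCs, n = 1) and wild type ESCs (WT ESCs, n = 1), all of strain C57BL/6. Strap encodes a WD40-repeat protein, and the study asked how its loss affects splicing during lineage commitment. The other 4 libraries were whole embryos and served here as outside values only.

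EBs were formed without leukemia inhibitory factor (LIF) and then grown in N2B27 medium with 10 ng/mL basic fibroblast growth factor (bFGF), conditions used for neuroectoderm. The methods state that the ESC lines were derived from blastocysts of Strap+/- crosses and kept on mouse embryonic fibroblast feeder cells with serum and LIF. Each ESC group was 1 library. The paper calls the EB libraries of each genotype biological replicates. Nothing in the labels says whether they came from separate lines or cultures. The p-values therefore measure only the spread between these libraries, part of which may be technical. In mixtures of cells, fewer cells of a type and less RNA per cell cannot be told apart.

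As background, ESCs keep a naive pluripotent state through a network of transcription factors such as Oct4 (Pou5f1), Nanog, Esrrb and Klf4, and LIF helps to hold it. On LIF withdrawal this network is dismantled, cells pass through a primed state like the epithelial epiblast of the implanting embryo, and the germ layers follow. In aggregates the outermost cells commonly become extraembryonic endoderm, a secretory epithelium that makes serum proteins and apolipoproteins in the yolk sac. N2B27 with bFGF favours neural progenitors in the core.

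Levels were in FPKM, a fragment count divided by transcript length and by library size. Differences are EB minus ESC on the log2(FPKM + 1) scale, on which low genes appear to change less than they do. No fold is given against a group listed at 0 in every library. Tests were two-sided with limma, adjusted by Benjamini-Hochberg over all genes that reached 1 FPKM in 2 or more of the 6 libraries (15090 genes), at a threshold of 0.05. Strap itself had 8.48 and 11.3 FPKM in KO EBs and 49.7 and 47.2 FPKM in WT EBs, against 14.5 in KO ESCs and 68.7 in WT ESCs, which followed the genotype labels in every library. Its EB minus ESC difference did not pass (log2 difference -0.51 ± 0.15 SE, adjusted p = 0.0507).

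Between 13480 and 13886 genes reached 1 FPKM in each library. The EB libraries were deeper than the ESC libraries, 1.56 to 2.69 times the WT ESC library by the size of the smallest steps in low values, with the KO ESC library at 0.98 times. Mitochondrial rows, including those with several gene names, held 3.41% and 3.52% of the summed FPKM in KO EBs and 5.7% and 6.62% in WT EBs, against 1.61% in KO ESCs and 2.03% in WT ESCs. The 2 rows of the mitochondrially encoded list ran the other way within each genotype. They summed to 523 and 476 FPKM in KO EBs and 607 and 840 FPKM in WT EBs, against 793 in KO ESCs and 1002 in WT ESCs. No columns held identical values. The median absolute difference between the paired EB libraries was 0.27 in KO and 0.25 in WT on the log2(FPKM + 1) scale, and that between the lone KO and WT ESC libraries was 0.24.

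For 4 gene lists the DNA at the starts of member genes is shown first. Promoters of 300 bases (250 before to 50 after the start site, RefSeq, GRCm38.p6) were searched on both strands for the short motif that is textbook knowledge for the group, and the motifs were chosen with the results known. The interferon-stimulated response element (searched as GAAANNGAAA, overlaps allowed) was present in 17 of the 30 interferon-stimulated genes with a promoter in the table, against 3.44% of all 32851 promoters. Of the 25 such genes whose level fell in EBs, 15 held it. Isg15, a ubiquitin-like antiviral protein (chr4:156200769-156201068, minus strand), held 3 overlapping matches, and Ifit1, which binds foreign RNA (chr19:34640639-34640938, plus strand), held 2. Both are printed 5′ to 3′ with the matches in capitals.
Isg15: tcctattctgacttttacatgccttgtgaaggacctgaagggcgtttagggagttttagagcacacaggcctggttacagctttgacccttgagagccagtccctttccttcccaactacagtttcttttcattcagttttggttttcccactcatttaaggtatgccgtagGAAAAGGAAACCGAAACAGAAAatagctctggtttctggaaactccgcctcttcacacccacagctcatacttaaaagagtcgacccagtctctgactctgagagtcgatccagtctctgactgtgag
Ifit1: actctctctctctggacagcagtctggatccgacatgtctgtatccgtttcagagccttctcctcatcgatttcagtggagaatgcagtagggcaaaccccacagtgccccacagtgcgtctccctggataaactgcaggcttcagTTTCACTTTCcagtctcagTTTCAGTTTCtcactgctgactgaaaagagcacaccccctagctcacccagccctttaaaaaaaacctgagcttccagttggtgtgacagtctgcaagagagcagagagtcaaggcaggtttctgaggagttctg

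The core of the hypoxia response element (ACGTG) was in the promoters of 20 of 29 glycolysis and hypoxia genes, against 19.6% of all promoters. Among the 15 of these that changed in EBs, 10 held it. Pgk1, a glycolytic kinase (chrX:106186850-106187149, plus strand), held 2 separate matches. Bnip3, a mitophagy receptor (chr7:138909457-138909756, minus strand), held 2 overlapping matches, which are the 2 strands of a single CACGTG. Both genes rose in EBs. The capitals mark the motif.
Pgk1: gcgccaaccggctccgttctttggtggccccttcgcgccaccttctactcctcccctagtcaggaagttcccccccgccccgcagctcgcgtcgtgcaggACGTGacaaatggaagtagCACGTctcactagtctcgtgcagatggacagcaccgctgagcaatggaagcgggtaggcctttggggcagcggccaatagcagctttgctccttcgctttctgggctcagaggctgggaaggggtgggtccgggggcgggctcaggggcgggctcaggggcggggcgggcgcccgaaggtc
Bnip3: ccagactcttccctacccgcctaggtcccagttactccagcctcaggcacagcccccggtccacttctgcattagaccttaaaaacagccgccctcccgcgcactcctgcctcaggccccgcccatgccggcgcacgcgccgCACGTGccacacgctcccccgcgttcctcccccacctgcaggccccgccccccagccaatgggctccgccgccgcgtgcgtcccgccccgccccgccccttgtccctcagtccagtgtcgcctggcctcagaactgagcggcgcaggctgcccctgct

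The palindromic E-box (CACGTG, which contains the previous motif) was found in 14 of 31 germline genes and in 7.15% of all promoters. Of the 10 germline genes that changed and had a promoter in the table, 3 held it. Among them were Brdt, a testis bromodomain protein (chr5:107330944-107331243, plus strand), and Sycp1, a synaptonemal complex protein (chr3:102936051-102936350, minus strand), which fell in EBs. A short HNF1 motif (GTTAAT) was in 8 of 22 visceral endoderm genes, against 7.1% of all promoters. Of the 17 such genes that rose in EBs, 5 held it. It is shown for Afp, the alpha-fetoprotein gene (chr5:90490464-90490763, plus strand), which was listed at 0 in both ESC libraries. A match is a description of these letters and not a bound site.
Brdt: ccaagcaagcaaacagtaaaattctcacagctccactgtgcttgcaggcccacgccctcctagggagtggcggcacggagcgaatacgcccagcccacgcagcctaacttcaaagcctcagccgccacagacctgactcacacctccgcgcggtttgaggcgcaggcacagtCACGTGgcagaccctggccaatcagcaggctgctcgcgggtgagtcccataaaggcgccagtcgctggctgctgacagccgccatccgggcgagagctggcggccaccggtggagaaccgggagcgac
Sycp1: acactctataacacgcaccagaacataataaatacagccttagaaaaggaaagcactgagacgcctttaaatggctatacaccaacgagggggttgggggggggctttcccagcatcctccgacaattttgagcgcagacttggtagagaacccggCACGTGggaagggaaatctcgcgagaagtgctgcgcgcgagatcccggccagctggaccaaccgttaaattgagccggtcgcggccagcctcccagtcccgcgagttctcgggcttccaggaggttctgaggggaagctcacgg
Afp: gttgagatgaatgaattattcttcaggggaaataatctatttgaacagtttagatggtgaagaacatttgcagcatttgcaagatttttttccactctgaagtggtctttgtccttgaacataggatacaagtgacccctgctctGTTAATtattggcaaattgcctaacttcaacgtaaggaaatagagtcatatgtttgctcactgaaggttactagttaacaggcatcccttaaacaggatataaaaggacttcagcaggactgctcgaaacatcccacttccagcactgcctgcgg

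Of the 15090 genes tested, 4199 (27.8%) changed between EBs and ESCs, 1963 (13.0%) higher and 2236 (14.8%) lower in EBs. Of these, 1041 rose and 1213 fell by at least 1 on the log2 scale. At an unadjusted p under 0.05 there were 6406 (42.5%). The 4 EB values lay above both ESC values for 24.8% of genes and below both for 25.0%, so that 49.8% of genes showed no overlap, and the counts of the groups below are read against these shares. Where leaving out 1 library moved a list's count of 2 or more by over 1.5 times, the count without it stands in parentheses or in the next sentence. Counts of 1 gene were less firm: of 21 such counts over the 59 lists, 17 were 0 without at least 1 of the libraries. At the thresholds stated by the study (unadjusted p under 0.01 and an absolute log2 difference over 1), 6.39% were higher and 7.65% lower. Across all genes the median difference was 0.04. The count rested on the ESC libraries most: it was 898 without the KO ESC library and 937 without the WT ESC library, 2641 without KO EB replicate 1 and 2451 without WT EB replicate 2.

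**Figure D1:**
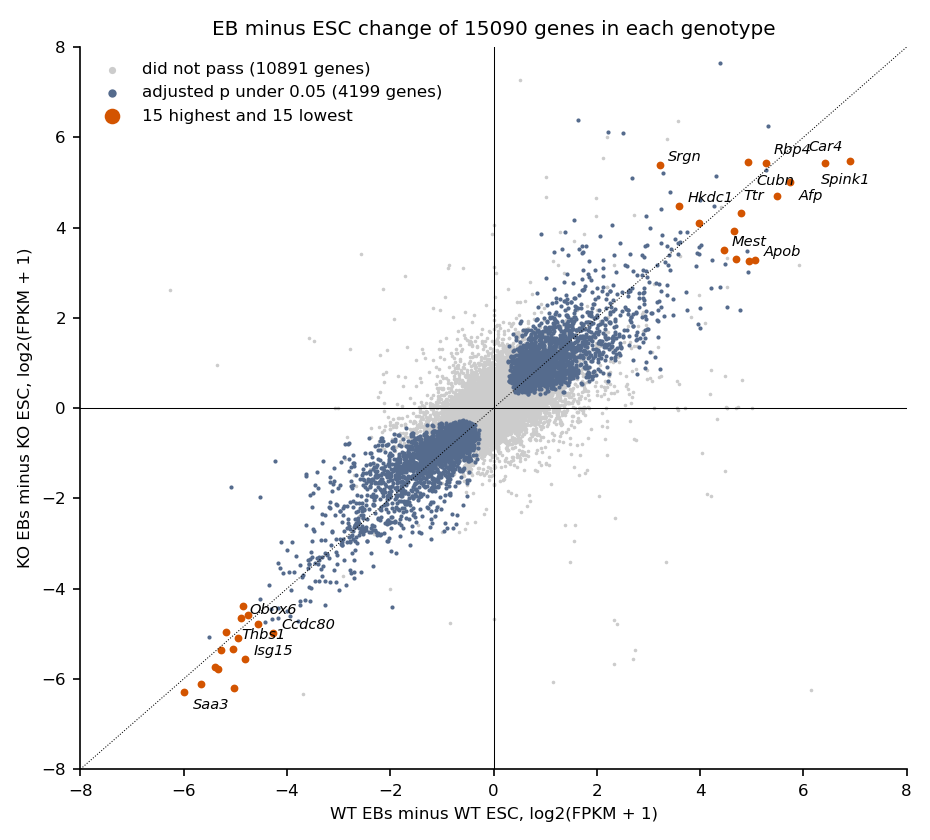
Each dot is 1 of 15090 genes, with the WT EB minus WT ESC difference on the x axis and the KO EB minus KO ESC difference on the y axis, both in log2(FPKM + 1), and the dotted line marks equal change. The 4199 genes past the threshold lie in the lower left and upper right corners, and the 15 highest and 15 lowest sit at their far ends.

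The KO difference and the WT difference share no library, and across genes their Pearson r was 0.75 and Spearman rho 0.73, as a description, since genes are not independent replicates. All 4199 genes that passed had both EB libraries on the same side of the ESC library in each genotype, which the test itself favours.

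Among the 15 genes with the highest differences that passed the test, 8 belonged to the visceral endoderm and yolk sac list. Ttr, which carries thyroid hormone and retinol-binding protein, had 26.2 and 24.1 FPKM in KO EBs and 46.9 and 53.2 FPKM in WT EBs, against 0 in KO ESCs and 0.133 in WT ESCs (log2 difference 5.10 ± 0.22 SE, adjusted p = 0.000609). Rbp4, the retinol carrier that Ttr binds, had 65.7 and 51.4 FPKM in KO EBs and 140.2 and 82.3 FPKM in WT EBs, against 0.367 in KO ESCs and 1.81 in WT ESCs (log2 difference 5.35 ± 0.24 SE, adjusted p = 0.000609). For both genes each EB value was far above each ESC value, with no overlap.

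Afp, the fetal serum protein, had 54.8 and 17.8 FPKM in KO EBs and 99.5 and 27.4 FPKM in WT EBs, against 0 in KO ESCs and 0 in WT ESCs (adjusted p = 0.00423). Replicate 1 was the higher of the pair in each genotype. Spink1, a secreted trypsin inhibitor, had 16.6 and 112 FPKM in KO EBs and 63.9 and 218 FPKM in WT EBs, against 0 in KO ESCs and 0 in WT ESCs (adjusted p = 0.0065), and here replicate 2 was the higher. The other gene of this set listed at 0 in both ESC libraries was Hkdc1, a hexokinase-domain protein, with 27.8 and 16.1 FPKM in KO EBs and 10.3 and 12 FPKM in WT EBs, against 0 in KO ESCs and 0 in WT ESCs (adjusted p = 0.00141). Afp and Spink1 did not pass without the KO ESC library or the WT ESC library (adjusted p between 0.0517 and 0.0906).

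The apolipoproteins of secreted lipid particles were high in EBs as well. Apob had 8.1 and 16.2 FPKM in KO EBs and 31.7 and 65.4 FPKM in WT EBs, against 0.292 in KO ESCs and 0.389 in WT ESCs (log2 difference 4.17 ± 0.52 SE, adjusted p = 0.00505). Apoa1 had 7.57 and 13.4 FPKM in KO EBs and 21.2 and 41.8 FPKM in WT EBs, against 0.163 in KO ESCs and 0 in WT ESCs (log2 difference 4.10 ± 0.49 SE, adjusted p = 0.00432). WT EBs held the higher values for both, and even the lowest KO EB value was above the ESC values. Cubn, the endocytic receptor for vitamin carriers, had 16.4 and 124 FPKM in KO EBs and 19.9 and 65.3 FPKM in WT EBs, against 0.0667 in KO ESCs and 0.226 in WT ESCs (log2 difference 5.19 ± 0.84 SE, adjusted p = 0.00991), with replicate 2 well above replicate 1 in both genotypes. Cubn did not pass without the KO ESC library (adjusted p = 0.104). Apob and Cubn did not pass without the WT ESC library (adjusted p between 0.0555 and 0.095).

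The set also held genes of other functions. Car4, a membrane carbonic anhydrase, had 64.2 and 88.6 FPKM in KO EBs and 116 and 163 FPKM in WT EBs, against 0.781 in KO ESCs and 0.615 in WT ESCs (log2 difference 5.92 ± 0.29 SE, adjusted p = 0.000633). Gpc3, a glypican that restrains Hedgehog signalling, reached 94.5 and 151 FPKM in KO EBs and 273 and 276 FPKM in WT EBs, against 5.04 in KO ESCs and 9.01 in WT ESCs (log2 difference 4.55 ± 0.22 SE, adjusted p = 0.000609). Krt18, a keratin of simple epithelia, had 214 and 120.4 FPKM in KO EBs and 232 and 193 FPKM in WT EBs, against 8.37 in KO ESCs and 12.6 in WT ESCs (log2 difference 4.04 ± 0.24 SE, adjusted p = 0.00076). In all 3 the groups were far apart. Srgn (serglycin, a proteoglycan core protein), Clic6 (a chloride channel family member), Emb (embigin, a membrane glycoprotein) and Mest (an imprinted hydrolase) completed the set, with log2 differences of 4.30, 4.29, 4.00 and 3.98. Srgn was higher in KO EBs (105 and 152 FPKM) than in WT EBs (20.3 and 48.8 FPKM), and Mest was higher in replicate 1 (505 FPKM in KO and 432 FPKM in WT) than in replicate 2 (64.3 FPKM in KO and 201 FPKM in WT). Srgn and Mest did not pass without the KO ESC library (adjusted p between 0.0522 and 0.113). Mest did not pass without the WT ESC library (adjusted p = 0.178).

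Of the 15 genes with the lowest differences, 4 were on the fibroblast and mesenchyme list, and 4 and 3 were on the inflammatory and interferon-stimulated lists, which were drawn up after these values were seen. Saa3, an acute-phase apolipoprotein, had 1.22 and 1.34 FPKM in KO EBs and 1.85 and 1.2 FPKM in WT EBs, against 177 in KO ESCs and 158 in WT ESCs (log2 difference -6.14 ± 0.19 SE, adjusted p = 0.0004). Tnc, the matrix protein tenascin C, had 1.37 and 0.623 FPKM in KO EBs and 3.38 and 4.56 FPKM in WT EBs, against 144 in KO ESCs and 159 in WT ESCs (log2 difference -5.61 ± 0.33 SE, adjusted p = 0.00076). Both ESC libraries were high and close to each other in each case.

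Inhba, the activin A subunit, had 0.134 and 0.0661 FPKM in KO EBs and 0.437 and 0.615 FPKM in WT EBs, against 59.8 in KO ESCs and 60.6 in WT ESCs (log2 difference -5.56 ± 0.21 SE, adjusted p = 0.000577). Ptgs2, the inducible cyclooxygenase, had 0.188 and 0.659 FPKM in KO EBs and 0.436 and 0.981 FPKM in WT EBs, against 57.1 in KO ESCs and 64.2 in WT ESCs (log2 difference -5.32 ± 0.25 SE, adjusted p = 0.000609). Thbs1 (thrombospondin 1), Lox (lysyl oxidase, which crosslinks collagen), Col12a1 (a fibril-associated collagen) and Ccdc80 (a secreted matrix protein) differed by -5.19, -5.57, -4.67 and -4.63, and the chemokines Ccl2 and Ccl7 by -5.02 and -4.67. The interferon-stimulated genes Isg15, Ifi27 and Xaf1 differed by -5.19, -5.07 and -4.62. The last of the set, Obox6, a homeobox gene of the preimplantation embryo, had 0.0516 and 0.0763 FPKM in KO EBs and 0.0917 and 0.0443 FPKM in WT EBs, against 25.6 in KO ESCs and 30.6 in WT ESCs (log2 difference -4.77 ± 0.19 SE, adjusted p = 0.000577). Thbs1 did not pass without the KO ESC library or the WT ESC library (adjusted p between 0.091 and 0.0922).

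**Figure D2:**
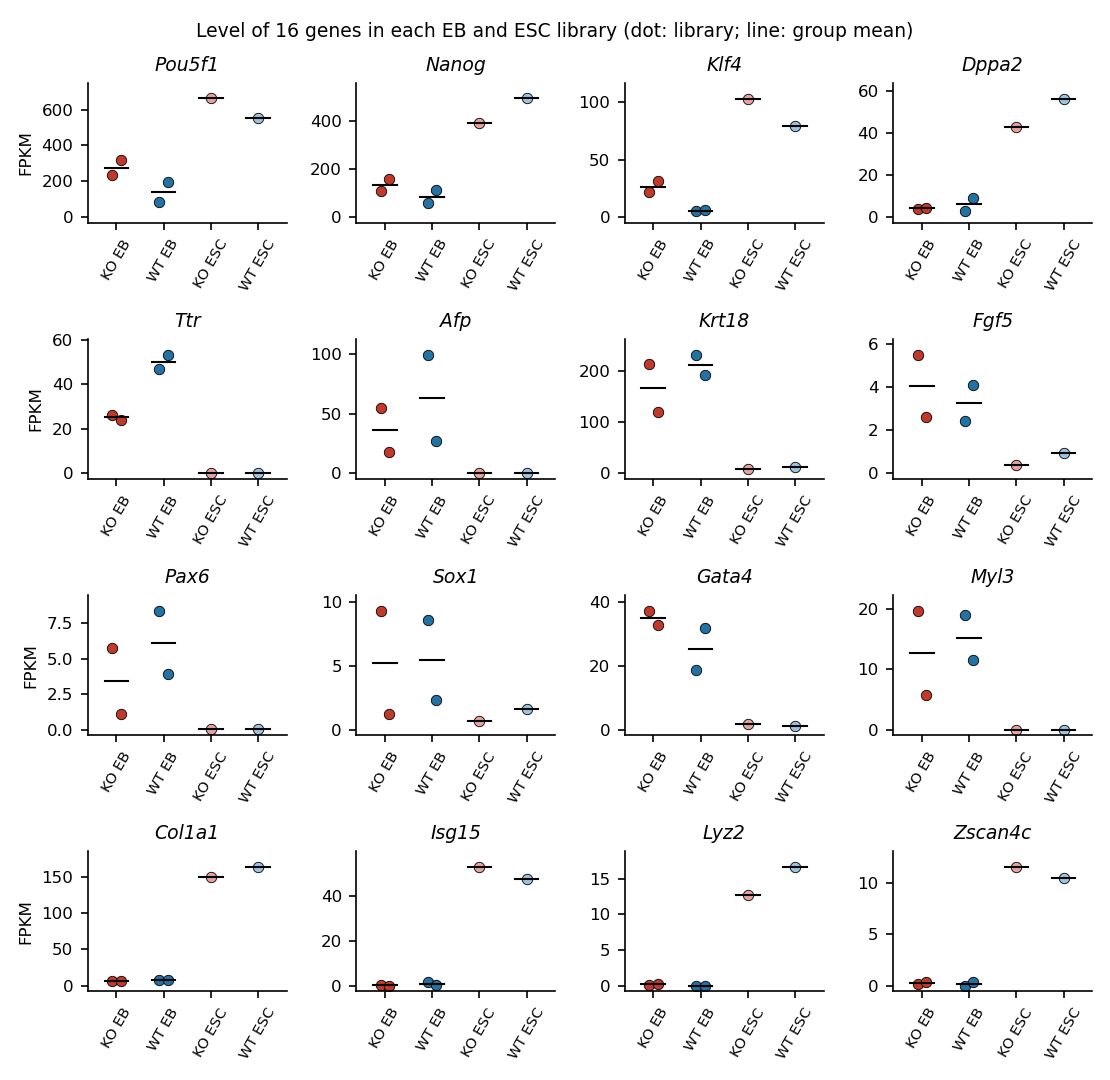
FPKM of 16 genes in each library, with 1 dot per library, a line at the group mean, and KO EB, WT EB, KO ESC and WT ESC from left to right. Pluripotency genes in the top row keep values above 0 in every EB library, and Col1a1, Isg15, Lyz2 and Zscan4c in the bottom row have at most 8.32 FPKM in EBs.

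Part of the pluripotency genes fell in EBs. Of 15 core pluripotency genes tested, 5 fell and 1 rose (median log2 difference -0.95, against 0.04 over all genes), and of 25 naive pluripotency genes 14 fell and 0 rose (median -1.57). In the core pluripotency list, the number that fell was 0 without the KO ESC library and 0 without the WT ESC library. In the naive pluripotency list, the number that fell was 7 without KO EB replicate 1, 7 without the KO ESC library and 4 without the WT ESC library.

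Pou5f1, which encodes Oct4, had 233 and 316 FPKM in KO EBs and 83.3 and 199 FPKM in WT EBs, against 664 in KO ESCs and 554 in WT ESCs (log2 difference -1.69 ± 0.38 SE, adjusted p = 0.0249). Nanog, its partner in the core network, had 108 and 157 FPKM in KO EBs and 59.2 and 112 FPKM in WT EBs, against 389.9 in KO ESCs and 494 in WT ESCs (log2 difference -2.08 ± 0.35 SE, adjusted p = 0.0107). Dppa2, a chromatin regulator of ESCs, had 4.06 and 4.62 FPKM in KO EBs and 3.15 and 9.11 FPKM in WT EBs, against 42.7 in KO ESCs and 56.5 in WT ESCs (log2 difference -3.09 ± 0.35 SE, adjusted p = 0.00391). The groups did not overlap for these genes, and for Pou5f1 and Nanog the lowest EB value was WT EB replicate 1 and the highest KO EB replicate 2. Sall4 and Foxd3, a zinc finger and a forkhead factor, also fell (log2 differences -0.95 and -1.50). Pou5f1 did not pass without KO EB replicate 1 (adjusted p = 0.0659). Foxd3 did not pass without WT EB replicate 1 or WT EB replicate 2 (adjusted p between 0.0592 and 0.0614). Pou5f1, Nanog, Dppa2, Sall4 and Foxd3 did not pass without the KO ESC library or the WT ESC library (adjusted p between 0.0518 and 0.235).

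Lin28a, which blocks maturation of let-7 miRNAs and is high in the epiblast, was the 1 core gene that rose, with 113 and 76 FPKM in KO EBs and 103 and 92 FPKM in WT EBs, against 20.4 in KO ESCs and 26.9 in WT ESCs (log2 difference 1.97 ± 0.19 SE, adjusted p = 0.00236). All 4 EB values stood well above both ESC values.

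In the naive list, Klf4, a Krüppel-like factor, had 22.1 and 31.4 FPKM in KO EBs and 5.71 and 5.97 FPKM in WT EBs, against 103 in KO ESCs and 79.3 in WT ESCs (log2 difference -2.74 ± 0.37 SE, adjusted p = 0.00617). Tbx3, a T-box repressor, had 21 and 27.2 FPKM in KO EBs and 7.7 and 13.4 FPKM in WT EBs, against 113 in KO ESCs and 128 in WT ESCs (log2 difference -2.86 ± 0.35 SE, adjusted p = 0.00486). Tet2, a 5-methylcytosine oxidase, had 28.5 and 39.3 FPKM in KO EBs and 24.6 and 32.6 FPKM in WT EBs, against 119 in KO ESCs and 160.2 in WT ESCs (log2 difference -2.13 ± 0.22 SE, adjusted p = 0.0032). Both EB groups were below both ESC libraries. Jam2, a junctional adhesion molecule, fell by more (log2 difference -3.11 ± 0.30 SE, adjusted p = 0.00242).

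Not every naive gene passed. Esrrb, an orphan nuclear receptor, had 72.8 and 119 FPKM in KO EBs and 24.8 and 73.2 FPKM in WT EBs, against 123 in KO ESCs and 118 in WT ESCs (log2 difference -0.92 ± 0.48 SE, adjusted p = 0.194). Dppa5a, an RNA-binding protein, had 848 and 1045 FPKM in KO EBs and 218 and 578 FPKM in WT EBs, against 635 in KO ESCs and 728 in WT ESCs (log2 difference -0.23 ± 0.50 SE, adjusted p = 0.749). In both, KO EB replicate 2 was above at least 1 of the ESC values, and WT EB replicate 1 was the lowest of the 6 libraries. Zfp42, which encodes the ESC marker Rex1, had 16.2 and 30.4 FPKM in KO EBs and 9.31 and 19.9 FPKM in WT EBs, against 23.5 in KO ESCs and 36.9 in WT ESCs (log2 difference -0.72 ± 0.44 SE, adjusted p = 0.259). Over the naive list, the median difference from the ESC library of the same genotype was -0.99 and -1.05 in KO EB replicates 1 and 2 and -2.41 and -1.17 in WT EB replicates 1 and 2.

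Genes of the preimplantation embryo and the 2-cell-like state, which a small fraction of ESCs enters at any time, fell almost throughout the list. Of 18 tested, 16 fell and 0 rose (median -2.60). Zscan4c, a telomere-associated zinc finger protein of this state, had 0.204 and 0.344 FPKM in KO EBs and 0 and 0.325 FPKM in WT EBs, against 11.5 in KO ESCs and 10.5 in WT ESCs (log2 difference -3.31 ± 0.22 SE, adjusted p = 0.000977). Zscan4a followed with a log2 difference of -4.38. The Zscan4 genes are near-identical copies between which reads can be split, so single values are uncertain. Calcoco2, an autophagy receptor, had 10.4 and 9.37 FPKM in KO EBs and 10.3 and 13.9 FPKM in WT EBs, against 83.3 in KO ESCs and 146 in WT ESCs (log2 difference -3.23 ± 0.19 SE, adjusted p = 0.00076).

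Germline genes, many of them silenced by DNA methylation after implantation, gave 10 that fell and 1 that rose of 34 tested (median -0.68). In the germline list, the number that fell was 5 without KO EB replicate 1, 2 without the KO ESC library and 0 without the WT ESC library. Dazl, an RNA-binding protein of germ cells, had 2.58 and 6.03 FPKM in KO EBs and 1.82 and 6.19 FPKM in WT EBs, against 31.9 in KO ESCs and 48.9 in WT ESCs (log2 difference -3.09 ± 0.47 SE, adjusted p = 0.00826). Brdt had 1.93 and 2.02 FPKM in KO EBs and 0.857 and 1.32 FPKM in WT EBs, against 8.09 in KO ESCs and 10.2 in WT ESCs (log2 difference -2.02 ± 0.26 SE, adjusted p = 0.00559). Sycp1 had 0.955 and 2.54 FPKM in KO EBs and 0.466 and 0.985 FPKM in WT EBs, against 6.41 in KO ESCs and 9.76 in WT ESCs (log2 difference -2.08 ± 0.39 SE, adjusted p = 0.0141). The highest EB values were again well under the ESC values. Asz1, of the piRNA pathway, fell (log2 difference -1.48). Prdm1, a repressor needed to form germ cells, was the gene that rose (log2 difference 1.13 ± 0.33 SE, adjusted p = 0.0482). Sycp3 did not pass (log2 difference 0.20, adjusted p = 0.844). Prdm1 did not pass without KO EB replicate 1, KO EB replicate 2 or WT EB replicate 2 (adjusted p between 0.0575 and 0.0947). Dazl, Sycp1 and Prdm1 did not pass without the KO ESC library (adjusted p between 0.0519 and 0.199). Dazl, Brdt, Sycp1, Asz1 and Prdm1 did not pass without the WT ESC library (adjusted p between 0.0538 and 0.267).

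More primed epiblast markers rose in EBs than fell. Of 16 tested, 6 rose and 1 fell (median 1.16). Car4, given above among the highest differences, was 1 of the 6 and had the largest difference of the list (5.92). In whole embryos Car4 was lower at E9.0 than at E8.0, as were the visceral endoderm genes Rbp4 and Ttr. In the primed epiblast list, the number that rose was 3 without WT EB replicate 2, 3 without the KO ESC library and 3 without the WT ESC library. Otx2, a homeobox factor of the epiblast and anterior brain, had 28.8 and 22.4 FPKM in KO EBs and 29.2 and 23.4 FPKM in WT EBs, against 3.2 in KO ESCs and 0.46 in WT ESCs (log2 difference 3.43 ± 0.37 SE, adjusted p = 0.00328). Fgf5, the classical epiblast marker, had 5.52 and 2.6 FPKM in KO EBs and 2.44 and 4.11 FPKM in WT EBs, against 0.392 in KO ESCs and 0.946 in WT ESCs (log2 difference 1.45 ± 0.35 SE, adjusted p = 0.029), a low level in every library. Cldn6, a tight junction protein, had 55.7 and 74.3 FPKM in KO EBs and 83.8 and 90.3 FPKM in WT EBs, against 4.08 in KO ESCs and 6.22 in WT ESCs (log2 difference 3.65 ± 0.15 SE, adjusted p = 0.000577). Cldn6 is also on the list of epithelial genes given below, so the results of these lists share this gene. Whether the rises of Car4 and Cldn6 came from epiblast-like cells, endoderm or other epithelium was not tested. Sox11 and Fgf15 also rose, with log2 differences of 1.77 and 2.55, and Dnmt3a, a de novo DNA methyltransferase, fell (log2 difference -0.67 ± 0.17 SE, adjusted p = 0.0324). Sox11, Fgf15 and Dnmt3a did not pass without KO EB replicate 1 (adjusted p between 0.0706 and 0.0929). Dnmt3a did not pass without KO EB replicate 2 (adjusted p = 0.0561). Sox11 and Fgf15 did not pass without WT EB replicate 1 (adjusted p between 0.0592 and 0.0839). Fgf5, Sox11, Fgf15 and Dnmt3a did not pass without WT EB replicate 2, the KO ESC library or the WT ESC library (adjusted p between 0.0613 and 0.334).

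Of the lists examined, the largest median rise was that of visceral endoderm and yolk sac genes: 23 of 25 tested rose and 0 fell (median 3.02). In the visceral endoderm and yolk sac list, the number that rose was 10 without the KO ESC library and 11 without the WT ESC library. The transcription factors rose with the secreted products. Foxa2, a pioneer factor of endoderm, had 9.46 and 7.4 FPKM in KO EBs and 10.1 and 7.9 FPKM in WT EBs, against 0 in KO ESCs and 0 in WT ESCs (adjusted p = 0.000977). Gata4 had 37.1 and 32.8 FPKM in KO EBs and 18.6 and 31.8 FPKM in WT EBs, against 1.68 in KO ESCs and 1.23 in WT ESCs (log2 difference 3.63 ± 0.24 SE, adjusted p = 0.000977). Gata6 had 14.6 and 12 FPKM in KO EBs and 5.92 and 9.76 FPKM in WT EBs, against 0.581 in KO ESCs and 0.473 in WT ESCs (log2 difference 2.86 ± 0.28 SE, adjusted p = 0.00246). Both encode GATA factors that drive extraembryonic endoderm. All EB values lay above the ESC values.

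Dab2, an endocytic adaptor, had 58.9 and 119 FPKM in KO EBs and 70.3 and 109 FPKM in WT EBs, against 6.96 in KO ESCs and 13.3 in WT ESCs (log2 difference 3.02 ± 0.35 SE, adjusted p = 0.00406). Cited1, a transcriptional coactivator, had 43.8 and 33.5 FPKM in KO EBs and 32.1 and 34.4 FPKM in WT EBs, against 5.33 in KO ESCs and 9.19 in WT ESCs (log2 difference 2.19 ± 0.24 SE, adjusted p = 0.00335). The summed FPKM of the list was 581 and 866 in KO EBs and 954 and 1160 in WT EBs, against 47 in KO ESCs and 75 in WT ESCs. In whole embryos the sum was 1178 and 1615 at E8.0 and 396 and 366 at E9.0. The EB sums lay between those of the later and the earlier embryos in all 4 libraries. Dab2 did not pass without the KO ESC library (adjusted p = 0.0577).

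Genes of parietal endoderm and basement membrane split. Of 20 tested, 7 rose and 2 fell (1 without KO EB replicate 1, KO EB replicate 2 or WT EB replicate 1, 0 without WT EB replicate 2 or either ESC library) (median 0.39). In the parietal endoderm and basement membrane list, the number that rose was 2 without the KO ESC library and 4 without the WT ESC library. Col4a1, a chain of type IV collagen, had 833 and 363 FPKM in KO EBs and 235 and 149 FPKM in WT EBs, against 38.3 in KO ESCs and 44.3 in WT ESCs (log2 difference 2.93 ± 0.50 SE, adjusted p = 0.0113). Lama1, the laminin alpha 1 chain, had 277 and 137 FPKM in KO EBs and 54.6 and 50.3 FPKM in WT EBs, against 4.73 in KO ESCs and 7.37 in WT ESCs (log2 difference 3.88 ± 0.56 SE, adjusted p = 0.00742). Pth1r, the parathyroid hormone receptor of parietal endoderm, had 46 and 20.7 FPKM in KO EBs and 15.6 and 12 FPKM in WT EBs, against 1 in KO ESCs and 0.808 in WT ESCs (log2 difference 3.51 ± 0.38 SE, adjusted p = 0.00346). For these 3 genes KO EB replicate 1 was the highest library. Nid1, which links laminin to collagen, fell (log2 difference -1.09 ± 0.30 SE, adjusted p = 0.0436). Sox17 and Sox7, endoderm factors that also mark endothelium, rose with log2 differences of 3.26 and 2.55. Nid1 did not pass without KO EB replicate 2, WT EB replicate 1, WT EB replicate 2 or the WT ESC library (adjusted p between 0.0757 and 0.346). Col4a1, Pth1r, Nid1 and Sox17 did not pass without the KO ESC library (adjusted p between 0.0506 and 0.106).

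Most epithelial genes were higher in EBs: 18 of 27 tested rose and 1 fell (median 1.75). Krt8, the keratin partner of Krt18, had 148 and 87.3 FPKM in KO EBs and 141 and 137 FPKM in WT EBs, against 6.71 in KO ESCs and 9.44 in WT ESCs (log2 difference 3.82 ± 0.22 SE, adjusted p = 0.00076). Cldn7, a claudin of tight junctions, had 44.9 and 46.6 FPKM in KO EBs and 41 and 43.2 FPKM in WT EBs, against 4.19 in KO ESCs and 3.13 in WT ESCs (log2 difference 3.28 ± 0.13 SE, adjusted p = 0.000577), with little spread among EBs. Esrp1, a splicing regulator restricted to epithelia, had 15.3 and 17.6 FPKM in KO EBs and 21.9 and 26.4 FPKM in WT EBs, against 0.788 in KO ESCs and 0.329 in WT ESCs (log2 difference 3.76 ± 0.26 SE, adjusted p = 0.00115). Dsp, the desmosomal plaque protein, and Crb3, an apical polarity protein, rose by 2.17 and 2.86 on the log2 scale.

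**Figure D3:**
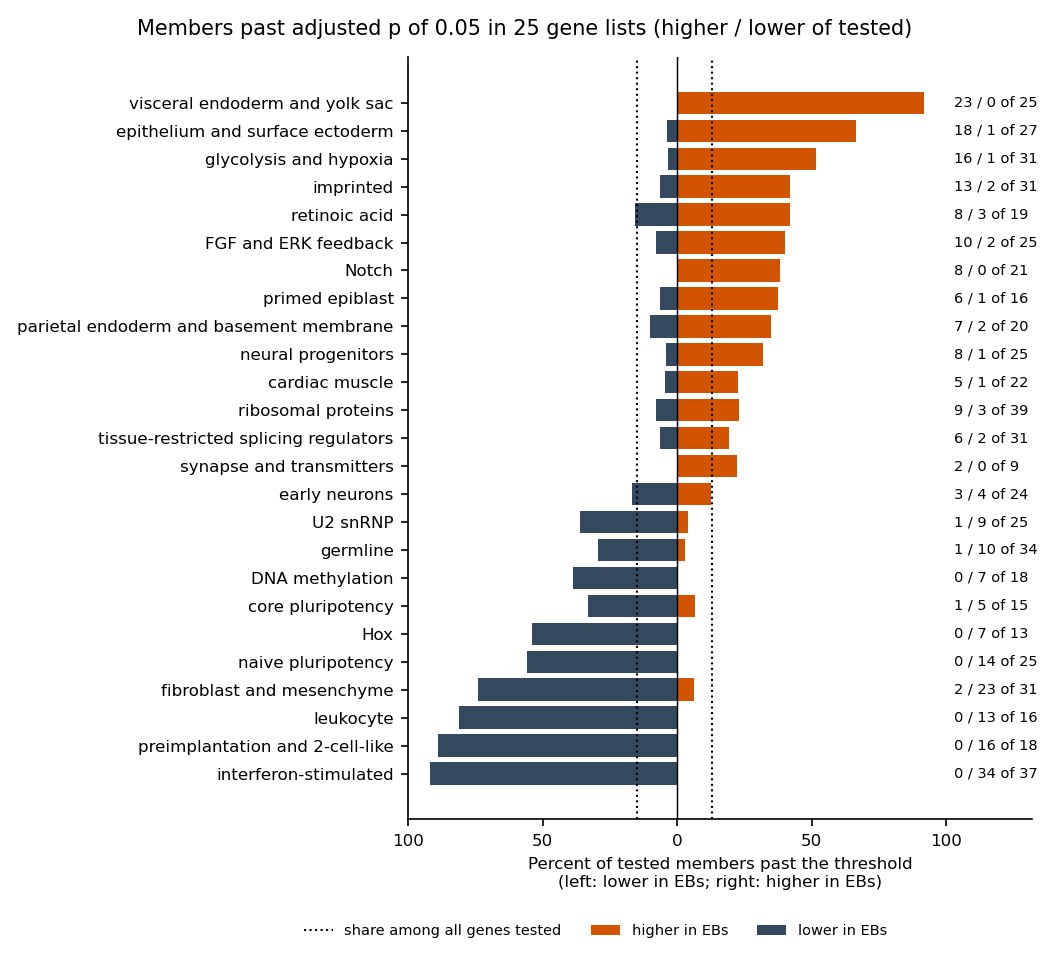
Bars give the percent of tested members of 25 gene lists that passed the test, to the right where higher in EBs and to the left where lower, with counts at the right edge, and dotted lines mark the shares over all genes, 13.0% higher and 14.8% lower. Visceral endoderm (23 of 25 higher) and interferon-stimulated genes (34 of 37 lower) stand at the ends.

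For the lineage that the medium favours, 8 of 25 neural progenitor genes rose and 1 fell (median 1.39). In the neural progenitors list, the number that rose was 3 without KO EB replicate 1, 15 without KO EB replicate 2, 5 without WT EB replicate 1, 5 without WT EB replicate 2, 1 without the KO ESC library and 1 without the WT ESC library. Mdk, a heparin-binding growth factor of neural and other progenitors, had 209 and 186 FPKM in KO EBs and 268 and 207 FPKM in WT EBs, against 43.9 in KO ESCs and 41.3 in WT ESCs (log2 difference 2.31 ± 0.16 SE, adjusted p = 0.00107). Prom1, a membrane protein of progenitor cells, had 27.1 and 12.2 FPKM in KO EBs and 47.2 and 21.8 FPKM in WT EBs, against 0.904 in KO ESCs and 3.39 in WT ESCs (log2 difference 3.13 ± 0.42 SE, adjusted p = 0.00605). The groups did not overlap for either. Pax6, a paired-box factor of neuroectoderm, had 5.75 and 1.07 FPKM in KO EBs and 8.37 and 3.93 FPKM in WT EBs, against 0.0541 in KO ESCs and 0.052 in WT ESCs (log2 difference 2.26 ± 0.55 SE, adjusted p = 0.0303). Zic1, a zinc finger factor, had 2.84 and 1.31 FPKM in KO EBs and 6.08 and 2.39 FPKM in WT EBs, against 0.136 in KO ESCs and 0.108 in WT ESCs (log2 difference 1.77 ± 0.40 SE, adjusted p = 0.0254). Replicate 1 was the higher library of each genotype for Prom1, Pax6 and Zic1. Ncam1, a cell adhesion molecule, was the gene that fell (log2 difference -1.06 ± 0.20 SE, adjusted p = 0.0155). Pax6 and Zic1 did not pass without KO EB replicate 1 (adjusted p between 0.0629 and 0.0676). Pax6 did not pass without WT EB replicate 1 or WT EB replicate 2 (adjusted p between 0.054 and 0.0571). Prom1, Pax6, Zic1 and Ncam1 did not pass without the KO ESC library or the WT ESC library (adjusted p between 0.0633 and 0.243).

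Sox1, the defining transcription factor of neuroectoderm, had 9.33 and 1.19 FPKM in KO EBs and 8.57 and 2.35 FPKM in WT EBs, against 0.694 in KO ESCs and 1.64 in WT ESCs (log2 difference 1.30 ± 0.70 SE, adjusted p = 0.21). Hes5, a Notch target of neural progenitors, had 14.7 and 0.649 FPKM in KO EBs and 6.87 and 1.02 FPKM in WT EBs, against 0.129 in KO ESCs and 0 in WT ESCs (log2 difference 2.08 ± 0.97 SE, adjusted p = 0.154). Neither passed, and in both genes replicate 1 of each genotype was high while replicate 2 was close to the ESC values. Nes, an intermediate filament of progenitors, had 12 and 5.35 FPKM in KO EBs and 11.8 and 6.6 FPKM in WT EBs, against 3.83 in KO ESCs and 5.8 in WT ESCs (log2 difference 0.72 ± 0.36 SE, adjusted p = 0.183). The median difference of the list from the ESC library of the same genotype was 2.18 and 0.40 in KO EB replicates 1 and 2 and 1.92 and 1.01 in WT EB replicates 1 and 2. EB replicate 1 also has another prefix in the column headers than EB replicate 2. What that prefix marks is not given in the sources used here. With the EB replicate number, which it follows, as a block in the fit, 21 of the 25 neural progenitor genes rose and 1 fell, against 8 and 1 without the block. The block takes the difference between EB replicates out of the spread and sets the ESC libraries midway by assumption.

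Later neuronal genes were less uniform. Of 11 proneural factors tested 3 rose (1 without WT EB replicate 1 or the WT ESC library, 0 without the KO ESC library) and 1 fell. Of 24 early neuron genes 3 rose (5 without KO EB replicate 2, 1 without WT EB replicate 1 or WT EB replicate 2, 0 without the WT ESC library) and 4 fell (2 without the KO ESC library, 1 without the WT ESC library). Of 9 synapse genes that passed the filter (30 listed) 2 rose (1 without KO EB replicate 1, 0 without WT EB replicate 2 or either ESC library) and 0 fell. Hes6, which promotes neurogenesis, had 21.1 and 14.9 FPKM in KO EBs and 11.3 and 11 FPKM in WT EBs, against 2.51 in KO ESCs and 3.55 in WT ESCs (log2 difference 1.91 ± 0.28 SE, adjusted p = 0.00759). Dll1, a Notch ligand, also rose (adjusted p = 0.0409). Mapt, the microtubule protein tau, fell (log2 difference -2.01 ± 0.24 SE, adjusted p = 0.00444). Tubb2b, a tubulin, had 37.1 and 31.8 FPKM in KO EBs and 35.8 and 31.9 FPKM in WT EBs, against 73.3 in KO ESCs and 111 in WT ESCs (log2 difference -1.38 ± 0.18 SE, adjusted p = 0.00527), with the ESC values above all EB values. Gadd45g, a stress and differentiation gene, fell (log2 difference -2.60 ± 0.30 SE, adjusted p = 0.00406). Crmp1 (a cytosolic phosphoprotein of growing axons), Syp (synaptophysin) and Grin1 (an NMDA receptor subunit) rose by 1.49, 1.10 and 1.34. Syp did not pass without KO EB replicate 1 (adjusted p = 0.0508). Dll1 did not pass without WT EB replicate 1 (adjusted p = 0.0778). Syp and Grin1 did not pass without WT EB replicate 2 (adjusted p between 0.051 and 0.0664). Hes6, Dll1, Mapt, Gadd45g, Crmp1, Syp and Grin1 did not pass without the KO ESC library (adjusted p between 0.055 and 0.305). Dll1, Mapt, Gadd45g, Crmp1, Syp and Grin1 did not pass without the WT ESC library (adjusted p between 0.0611 and 0.125).

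Hox genes, which pattern the trunk, were low in EBs. Of 39 listed, 13 passed the filter, 7 of which fell and 0 rose. In the Hox list, the number that fell was 4 without WT EB replicate 2 and 4 without the WT ESC library. Hoxb9 had 0.23 and 0.754 FPKM in KO EBs and 0.159 and 0.251 FPKM in WT EBs, against 5.82 in KO ESCs and 6.04 in WT ESCs (log2 difference -2.38 ± 0.24 SE, adjusted p = 0.00266). The summed FPKM of the list was 10.7 and 14.9 in KO EBs and 11.3 and 17.4 in WT EBs, against 37.4 in KO ESCs and 41 in WT ESCs, and it was between 193.7 and 234.6 in whole embryos. Cdx1, a caudal homeobox factor upstream of Hox genes, had 0.193 and 0.456 FPKM in KO EBs and 0.137 and 0.166 FPKM in WT EBs, against 11 in KO ESCs and 8.5 in WT ESCs (log2 difference -3.12 ± 0.20 SE, adjusted p = 0.000977). The ESC values of both genes stood above all 4 EB values. In the brain region list 2 of 13 tested rose (5 without KO EB replicate 2, 1 without the WT ESC library) and 2 fell (0 without KO EB replicate 1 or either ESC library, 1 without KO EB replicate 2, WT EB replicate 1 or WT EB replicate 2). Otx2 and Fgf8, a signal of brain organizers (log2 difference 1.74), rose, and Hesx1 and Emx2, homeobox factors of the anterior brain, fell (log2 differences -1.14 and -1.55). Hesx1 and Emx2 did not pass without KO EB replicate 1 or the KO ESC library (adjusted p between 0.0832 and 0.311). Emx2 did not pass without KO EB replicate 2 or WT EB replicate 2 (adjusted p between 0.0827 and 0.107). Hesx1 did not pass without WT EB replicate 1 (adjusted p = 0.0641). Fgf8, Hesx1 and Emx2 did not pass without the WT ESC library (adjusted p between 0.0529 and 0.183).

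Of 16 primitive streak and mesoderm genes tested 6 rose (3 without the WT ESC library) and 2 fell (1 without any 1 library other than WT EB replicate 1) (median 1.05), and of 22 cardiac muscle genes 5 rose and 1 fell (median 0.83). In the cardiac muscle list, the number that rose was 3 without KO EB replicate 1 and 1 without the WT ESC library. Cyp26a1, which degrades retinoic acid, had 11.6 and 8.21 FPKM in KO EBs and 12.9 and 16 FPKM in WT EBs, against 0 in KO ESCs and 0 in WT ESCs (adjusted p = 0.000992). Dkk1, a secreted Wnt antagonist, had 2.97 and 2.69 FPKM in KO EBs and 5 and 3.65 FPKM in WT EBs, against 0.0645 in KO ESCs and 0.189 in WT ESCs (log2 difference 2.00 ± 0.22 SE, adjusted p = 0.00346). Both were above the ESC values in all 4 EB libraries. Among the 5 cardiac muscle genes that rose was Gata4, given above with the extraembryonic endoderm factors, so the 2 results share this gene. Myl3, a myosin light chain of cardiac and slow muscle, had 19.6 and 5.73 FPKM in KO EBs and 19 and 11.4 FPKM in WT EBs, against 0 in KO ESCs and 0 in WT ESCs (adjusted p = 0.00527). Myh7, the slow myosin heavy chain, had 5.99 and 2.33 FPKM in KO EBs and 26 and 8.15 FPKM in WT EBs, against 0.0741 in KO ESCs and 0.169 in WT ESCs (log2 difference 2.96 ± 0.60 SE, adjusted p = 0.018). Atp2a2, the calcium pump of the sarcoplasmic reticulum that most cells also use, fell (log2 difference -1.22 ± 0.10 SE, adjusted p = 0.00155). Myh7 did not pass without KO EB replicate 1 (adjusted p = 0.0524). Myl3 and Myh7 did not pass without the KO ESC library or the WT ESC library (adjusted p between 0.0577 and 0.183).

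The cardiac list differed between EB libraries: its median difference from the ESC library of the same genotype was 0.45 and -0.02 in KO EB replicates 1 and 2 and 1.97 and 1.66 in WT EB replicates 1 and 2. Actc1, the cardiac actin, had 2.52 and 0.207 FPKM in KO EBs and 79.3 and 19.3 FPKM in WT EBs, against 0.33 in KO ESCs and 0.432 in WT ESCs (log2 difference 2.73 ± 1.07 SE, adjusted p = 0.108), so WT EBs were high and KO EB replicate 2 lay below both ESC values. In the neural crest list 5 of 17 rose (1 without KO EB replicate 1 or WT EB replicate 2, 2 without WT EB replicate 1, 0 without either ESC library) and 3 fell (1 without the KO ESC library, 0 without the WT ESC library). Crabp1, a retinoic acid binding protein, had 116 and 33.4 FPKM in KO EBs and 138 and 61.9 FPKM in WT EBs, against 9.6 in KO ESCs and 11.4 in WT ESCs (log2 difference 2.75 ± 0.54 SE, adjusted p = 0.0165). Erbb3 (a neuregulin receptor) and Mitf (the melanocyte factor) fell (log2 differences -0.96 and -1.43). Crabp1 and Erbb3 did not pass without the KO ESC library (adjusted p between 0.102 and 0.117). Crabp1, Erbb3 and Mitf did not pass without the WT ESC library (adjusted p between 0.079 and 0.153).

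**Figure D4:**
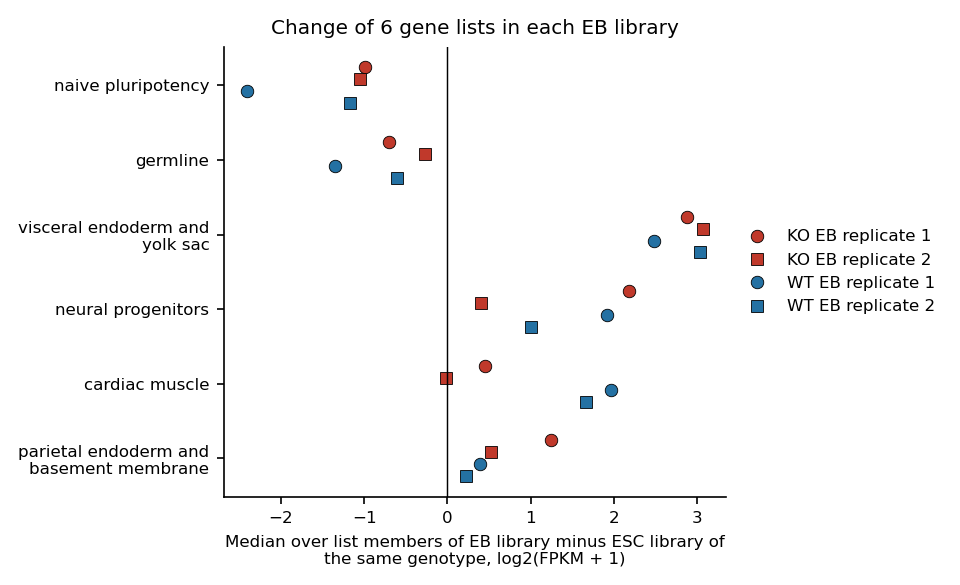
For 6 gene lists, each symbol is the median over members of 1 EB library minus the ESC library of the same genotype, in log2(FPKM + 1). Red is KO, blue is WT, circles are replicate 1 and squares replicate 2. Visceral endoderm genes rise by 2.48 to 3.07 in all 4 libraries, while neural progenitor genes range between 0.4 (KO EB replicate 2) and 2.18 (KO EB replicate 1).

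Genes of fibroblasts and mesenchyme were high in both ESC libraries: 23 of 31 tested fell in EBs and 2 rose (1 without any 1 library other than KO EB replicate 2) (median -1.83). In the fibroblast and mesenchyme list, the number that fell was 8 without the KO ESC library and 14 without the WT ESC library. Col1a1, the main chain of type I collagen, had 5.76 and 6.18 FPKM in KO EBs and 8.03 and 8.32 FPKM in WT EBs, against 149 in KO ESCs and 164 in WT ESCs (log2 difference -4.30 ± 0.13 SE, adjusted p = 0.0004). Col5a2, a minor fibrillar collagen, had 0.49 and 0.509 FPKM in KO EBs and 1.56 and 1.03 FPKM in WT EBs, against 36.6 in KO ESCs and 40.1 in WT ESCs (log2 difference -4.41 ± 0.22 SE, adjusted p = 0.000682). Both collagens were low in all 4 EB libraries. Thy1, a fibroblast surface protein, had 1.79 and 2.71 FPKM in KO EBs and 1.9 and 1.41 FPKM in WT EBs, against 18.6 in KO ESCs and 14.4 in WT ESCs (log2 difference -2.57 ± 0.22 SE, adjusted p = 0.00174). Prrx1, a mesenchymal homeobox factor, had 0.742 and 1.09 FPKM in KO EBs and 3.89 and 3.1 FPKM in WT EBs, against 20.6 in KO ESCs and 21.6 in WT ESCs (log2 difference -2.92 ± 0.31 SE, adjusted p = 0.00323). The 2 genes that rose were the bHLH factor and growth factor receptor genes Twist1 and Pdgfra (row shared with Mir7025). Fap, a surface protease of activated fibroblasts, had at most 0.606 FPKM in any of the 6 libraries. The summed FPKM of the list was 441 and 417 in KO EBs and 811 and 546 in WT EBs, against 2452 in KO ESCs and 2628 in WT ESCs.

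Further lists were added after these values were seen. Of 37 interferon-stimulated genes tested 34 fell (median -2.78), of 17 inflammatory genes 16 (median -2.72) and of 16 leukocyte genes 13 (median -2.43), with 0 that rose in any of them. Irf7, the interferon regulatory factor of the amplification loop, had 0.042 and 0.169 FPKM in KO EBs and 0.852 and 0.271 FPKM in WT EBs, against 25.9 in KO ESCs and 22.6 in WT ESCs (log2 difference -4.28 ± 0.27 SE, adjusted p = 0.000942). Ifit1 had 0.0495 and 0.0365 FPKM in KO EBs and 0.308 and 0.0851 FPKM in WT EBs, against 15.5 in KO ESCs and 12.7 in WT ESCs (log2 difference -3.76 ± 0.22 SE, adjusted p = 0.00076). All 4 EB values of both genes were far under the ESC values. Isg15 had 0.302 and 0 FPKM in KO EBs and 1.52 and 0.172 FPKM in WT EBs, against 52.6 in KO ESCs and 47.4 in WT ESCs (log2 difference -5.19 ± 0.37 SE, adjusted p = 0.00122). B2m, the light chain of class I histocompatibility molecules, had 26 and 23.1 FPKM in KO EBs and 53.3 and 44 FPKM in WT EBs, against 304 in KO ESCs and 341 in WT ESCs (log2 difference -3.18 ± 0.20 SE, adjusted p = 0.000977). The summed FPKM of the interferon-stimulated list was 223 and 268 in KO EBs and 199 and 271 in WT EBs, against 1707 in KO ESCs and 1634 in WT ESCs. That of the inflammatory list was 42.6 and 42.7 in KO EBs and 31.6 and 44.4 in WT EBs, against 512 in KO ESCs and 506 in WT ESCs. In each list every ESC library was above every EB library.

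The summed FPKM of the leukocyte list was 35.4 and 40.9 in KO EBs and 12.5 and 18.5 in WT EBs, against 177 in KO ESCs and 156 in WT ESCs. Lyz2, the lysozyme of macrophages, had 0.11 and 0.245 FPKM in KO EBs and 0 and 0 FPKM in WT EBs, against 12.7 in KO ESCs and 16.6 in WT ESCs (log2 difference -3.84 ± 0.23 SE, adjusted p = 0.00076). Adgre1, which encodes the macrophage antigen F4/80, had 0.0626 and 0 FPKM in KO EBs and 0.0178 and 0 FPKM in WT EBs, against 5 in KO ESCs and 5.13 in WT ESCs (log2 difference -2.57 ± 0.18 SE, adjusted p = 0.0012). Ctss, a lysosomal protease of antigen-presenting cells, was listed at 0 in every EB library, and had 15.3 FPKM in KO ESCs and 14.2 FPKM in WT ESCs.

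The summed FPKM of 4 Y-linked genes was 0.0238 and 0.0634 in KO EBs and 0.0917 and 0.0423 in WT EBs, against 4.04 in KO ESCs and 3.89 in WT ESCs. It was between 24.1 and 34.4 in whole embryos. Of the 4, Eif2s3y, a translation initiation factor gene, passed the filter and fell (log2 difference -1.68 ± 0.21 SE, adjusted p = 0.00497). The row of Xist, the X-inactivation RNA, which also carries 2 predicted genes, had 0.377 and 1.33 FPKM in KO EBs and 0.736 and 1.32 FPKM in WT EBs, against 12.1 in KO ESCs and 7.18 in WT ESCs (log2 difference -2.45 ± 0.33 SE, adjusted p = 0.00623). Feeder cells are named by the methods for ESC culture. Their part in the fibroblast, interferon, inflammatory, leukocyte, Xist and Y-linked values, and in the other genes lower in EBs, was not tested. RNA of ESCs and RNA of other cells of the dish cannot be told apart here. Xist did not pass without the KO ESC library (adjusted p = 0.0682).

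**Figure D5:**
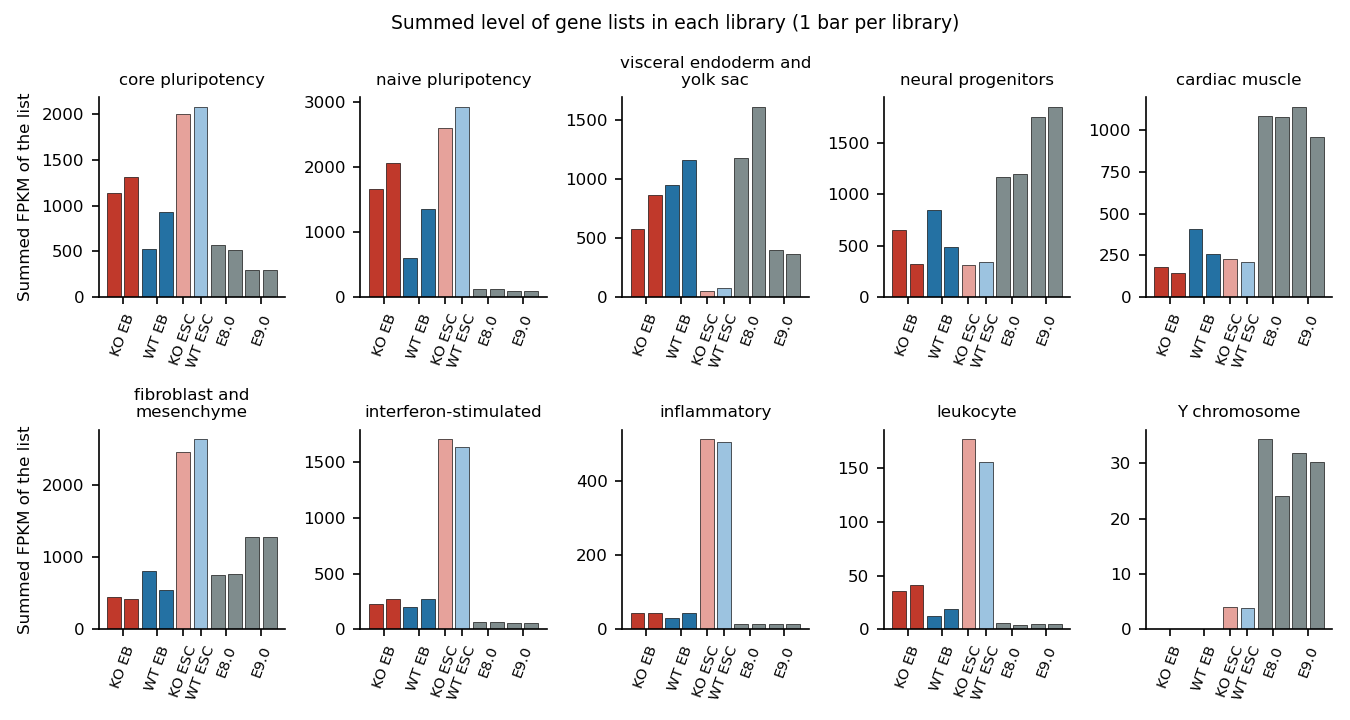
Summed FPKM of 10 gene lists, 1 bar per library, with KO EB, WT EB, KO ESC and WT ESC followed by the whole embryos of E8.0 and E9.0. Fibroblast, interferon-stimulated, inflammatory and leukocyte sums are highest in the ESC libraries, and the Y chromosome sum is 4.04 in KO ESCs and 3.89 in WT ESCs, above that of each EB library.

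Imprinted genes, expressed from 1 parental copy and many of them growth regulators, gave 13 that rose and 2 that fell (1 without either ESC library) of 31 tested (median 0.86). In the imprinted list, the number that rose was 8 without the KO ESC library and 2 without the WT ESC library. Dlk1, a Notch-like membrane ligand, had 23.9 and 14.5 FPKM in KO EBs and 93.2 and 139.7 FPKM in WT EBs, against 1.44 in KO ESCs and 2.76 in WT ESCs (log2 difference 3.97 ± 0.47 SE, adjusted p = 0.00419). Peg3, a zinc finger protein, had 140.2 and 75.6 FPKM in KO EBs and 184 and 184 FPKM in WT EBs, against 26.1 in KO ESCs and 19.7 in WT ESCs (log2 difference 2.55 ± 0.35 SE, adjusted p = 0.0062). The noncoding RNA H19 (row shared with Mir675) had 211 and 119.9 FPKM in KO EBs and 933 and 666 FPKM in WT EBs, against 13.4 in KO ESCs and 25.3 in WT ESCs (log2 difference 4.19 ± 0.39 SE, adjusted p = 0.00214). WT EBs were higher than KO EBs for Dlk1 and H19. Dio3, a deiodinase of the Dlk1 cluster, had the opposite direction, with 1.19 and 0.534 FPKM in KO EBs and 1.75 and 2.38 FPKM in WT EBs, against 14.1 in KO ESCs and 22.4 in WT ESCs (log2 difference -2.99 ± 0.23 SE, adjusted p = 0.00141). Cdkn1c, an imprinted cyclin-dependent kinase inhibitor, rose by 2.91, and Peg10, needed for the placenta, by 2.34. Cdkn1c did not pass without KO EB replicate 1 or WT EB replicate 2 (adjusted p between 0.0552 and 0.0734). Cdkn1c and Peg10 did not pass without the KO ESC library (adjusted p between 0.0615 and 0.0728). Peg3, Cdkn1c and Peg10 did not pass without the WT ESC library (adjusted p between 0.0641 and 0.253).

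Glycolysis and hypoxia genes rose broadly, 16 of 31 tested, with 1 that fell (median 0.85). In the glycolysis and hypoxia list, the number that rose was 6 without the KO ESC library and 5 without the WT ESC library. Slc2a1, the glucose transporter GLUT1, had 424 and 453 FPKM in KO EBs and 336 and 331 FPKM in WT EBs, against 165 in KO ESCs and 87.9 in WT ESCs (log2 difference 1.66 ± 0.15 SE, adjusted p = 0.00201). Pdk1, which shuts pyruvate away from mitochondria, had 89 and 112 FPKM in KO EBs and 73.3 and 98.9 FPKM in WT EBs, against 24 in KO ESCs and 20.5 in WT ESCs (log2 difference 2.01 ± 0.17 SE, adjusted p = 0.00166). The groups stood apart for both. Pgk1 had 232 and 275 FPKM in KO EBs and 233 and 245 FPKM in WT EBs, against 111 in KO ESCs and 81.4 in WT ESCs (log2 difference 1.36 ± 0.14 SE, adjusted p = 0.00287). Bnip3 had 128 and 179 FPKM in KO EBs and 116 and 146 FPKM in WT EBs, against 53.7 in KO ESCs and 41.7 in WT ESCs (log2 difference 1.55 ± 0.18 SE, adjusted p = 0.00406). P4ha1, a collagen prolyl hydroxylase, and Pfkl, a phosphofructokinase, rose by 1.38 and 1.48. Hk1, a hexokinase, was the gene that fell (log2 difference -0.83 ± 0.21 SE, adjusted p = 0.0328), and Vegfa, an angiogenic target of hypoxia, did not pass (log2 difference 0.18). Hk1 did not pass without KO EB replicate 1 or WT EB replicate 1 (adjusted p between 0.0538 and 0.0769). Bnip3 and Hk1 did not pass without the KO ESC library or the WT ESC library (adjusted p between 0.0504 and 0.207).

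The oxidative stress and metallothionein list leaned lower in EBs: 12 of its 18 tested genes were lower and 6 higher, whether or not they passed (median -0.37). Its metallothioneins Mt1 and Mt2, which bind zinc and copper, were higher in EBs. Mt1 had 852 and 996 FPKM in KO EBs and 419.6 and 820.1 FPKM in WT EBs, against 251 in KO ESCs and 154 in WT ESCs (log2 difference 1.90 ± 0.27 SE, adjusted p = 0.00711). Txnip, a glucose-induced inhibitor of thioredoxin, had 229.6 and 482 FPKM in KO EBs and 227 and 384 FPKM in WT EBs, against 94.3 in KO ESCs and 58 in WT ESCs (log2 difference 2.07 ± 0.36 SE, adjusted p = 0.0116). Sod1, a superoxide dismutase, fell (log2 difference -1.05 ± 0.18 SE, adjusted p = 0.0107). Apoe, a lipid carrier, rose (log2 difference 2.02 ± 0.31 SE, adjusted p = 0.00889). Of 30 cholesterol synthesis genes 5 rose (3 without KO EB replicate 1, 0 without the KO ESC library, 1 without the WT ESC library) and 2 fell (0 without either ESC library) (median 0.28), among them Insig1, a sterol sensor (log2 difference 1.28 ± 0.21 SE, adjusted p = 0.00982). Mt1, Txnip, Sod1, Apoe and Insig1 did not pass without the KO ESC library (adjusted p between 0.0516 and 0.0921). Mt1, Txnip, Sod1 and Apoe did not pass without the WT ESC library (adjusted p between 0.0854 and 0.13).

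Genes of growth and the cell cycle held calls in both directions, to be read against 13.0% higher and 14.8% lower over all genes. Of 28 genes of the Myc and nucleotide synthesis list 10 fell (2 without the KO ESC library, 3 without the WT ESC library) and 1 rose (median -0.16). Fbl, the nucleolar methyltransferase fibrillarin, had 36.8 and 40.0 FPKM in KO EBs and 36.8 and 39.6 FPKM in WT EBs, against 75.8 in KO ESCs and 69.3 in WT ESCs (log2 difference -0.90 ± 0.11 SE, adjusted p = 0.00481). Ppat, of purine synthesis, fell too (log2 difference -1.06). Of 28 cell cycle genes 6 fell (0 without either ESC library) and 3 rose (1 without WT EB replicate 1, WT EB replicate 2 or the WT ESC library, 0 without the KO ESC library). Ccne1, cyclin E1, was lower (log2 difference -1.06 ± 0.18 SE, adjusted p = 0.0109) and Aurkb, a mitotic kinase, higher (log2 difference 0.88 ± 0.14 SE, adjusted p = 0.00949). Cdkn1a, the p53 target p21, fell (log2 difference -0.93 ± 0.16 SE, adjusted p = 0.0113) and Cdkn1b, p27, rose (log2 difference 0.89 ± 0.16 SE, adjusted p = 0.0119). Of 24 p53 targets 7 fell (4 without KO EB replicate 1, 3 without the KO ESC library, 1 without the WT ESC library) and 1 rose. Fbl, Ccne1, Aurkb and Cdkn1b did not pass without the KO ESC library (adjusted p between 0.0549 and 0.106). Ccne1, Cdkn1a and Cdkn1b did not pass without the WT ESC library (adjusted p between 0.0845 and 0.119).

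DNA methylation factors gave 7 that fell and 0 that rose of 18 tested (median -0.03). In the DNA methylation list, the number that fell was 4 without KO EB replicate 1, 4 without the KO ESC library and 2 without the WT ESC library. Uhrf1, which recruits the maintenance methyltransferase, fell (log2 difference -1.25 ± 0.10 SE, adjusted p = 0.00152). Trim28, a corepressor that keeps imprints methylated, had 525 and 421 FPKM in KO EBs and 393 and 422 FPKM in WT EBs, against 950.4 in KO ESCs and 994 in WT ESCs (log2 difference -1.15 ± 0.15 SE, adjusted p = 0.0061). Its zinc finger partner Zfp57 fell as well (log2 difference -1.68 ± 0.30 SE, adjusted p = 0.0126). Of 27 Polycomb genes 7 fell (3 without either ESC library) and 3 rose (0 without the KO ESC library, 1 without the WT ESC library). Eed, a core subunit of PRC2, had 73.6 and 67.2 FPKM in KO EBs and 62.5 and 68.2 FPKM in WT EBs, against 197 in KO ESCs and 177 in WT ESCs (log2 difference -1.45 ± 0.11 SE, adjusted p = 0.00131). Linker and variant histones ran the other way, with 6 of 16 higher (3 without KO EB replicate 1, 2 without WT EB replicate 2 or the WT ESC library, 1 without the KO ESC library) and 0 lower, such as the linker histone gene H1f0 (log2 difference 1.31 ± 0.19 SE, adjusted p = 0.00691). Trim28 and Zfp57 did not pass without the WT ESC library (adjusted p between 0.068 and 0.111).

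Splicing was the subject of the study, and more genes of the U2 snRNP, the particle that recognises the branch point, fell in EBs than rose. Of 25 U2 snRNP genes 9 fell and 1 rose (median -0.28). In the U2 snRNP list, the number that fell was 2 without the KO ESC library and 2 without the WT ESC library. Snrpb2, a U2 protein that binds the snRNA, had 17.4 and 15.6 FPKM in KO EBs and 20.3 and 20.4 FPKM in WT EBs, against 45.4 in KO ESCs and 47.1 in WT ESCs (log2 difference -1.29 ± 0.13 SE, adjusted p = 0.00269). Sf3a1, of the SF3A complex, had 25.5 and 25 FPKM in KO EBs and 25.6 and 26.2 FPKM in WT EBs, against 43.8 in KO ESCs and 54.1 in WT ESCs (log2 difference -0.90 ± 0.12 SE, adjusted p = 0.00608), with EB values close to each other. Of 10 genes of the SMN complex, which loads Sm proteins, 3 fell (1 without KO EB replicate 1, WT EB replicate 1 or WT EB replicate 2, 0 without either ESC library), and 1 rose. Prmt5, Ddx20 and Gemin5 were lower (log2 differences -0.81, -0.59 and -0.53), and Gemin8 was higher (0.99). Of 16 SR protein genes 4 fell (1 without KO EB replicate 1, KO EB replicate 2, WT EB replicate 1 or WT EB replicate 2, 0 without either ESC library) and 2 rose (0 without any 1 library). The balance of the SR list turned with the scaling: 1 fell and 3 rose with quantile normalization, and 5 fell and 0 rose with median scaling. Its member Tra2b was lower (log2 difference -0.62 ± 0.11 SE, adjusted p = 0.0113). Ddx20 and Gemin5 did not pass without KO EB replicate 1, WT EB replicate 1 or WT EB replicate 2 (adjusted p between 0.0586 and 0.0797). Prmt5, Ddx20, Gemin5, Gemin8 and Tra2b did not pass without the KO ESC library (adjusted p between 0.0615 and 0.126). Sf3a1, Prmt5, Ddx20, Gemin5, Gemin8 and Tra2b did not pass without the WT ESC library (adjusted p between 0.0641 and 0.193).

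Tissue-restricted splicing regulators changed in both directions, with 6 of 31 higher (3 without KO EB replicate 1 or the KO ESC library, 1 without the WT ESC library) and 2 lower (1 without KO EB replicate 1, WT EB replicate 1, WT EB replicate 2 or the WT ESC library, 0 without the KO ESC library) (median 0.14). Among all genes tested 27.8% changed, so calls in either direction were no more frequent on this list. Besides Esrp1, Ptbp2, the neural polypyrimidine tract protein, had 58.2 and 34.3 FPKM in KO EBs and 97.1 and 57.4 FPKM in WT EBs, against 19.17 in KO ESCs and 22.6 in WT ESCs (log2 difference 1.43 ± 0.30 SE, adjusted p = 0.0199). Ptbp1, its ubiquitous relative, had 230.0 and 243 FPKM in KO EBs and 258 and 261 FPKM in WT EBs, against 326 in KO ESCs and 359.5 in WT ESCs (log2 difference -0.46 ± 0.11 SE, adjusted p = 0.0259). The pair moved in opposite directions. Mbnl1, a regulator of differentiation-linked exons, fell (log2 difference -1.02 ± 0.15 SE, adjusted p = 0.0078), and Rbm20, a splicing factor of titin, rose (log2 difference 1.06 ± 0.20 SE, adjusted p = 0.0146). Ptbp2 and Ptbp1 did not pass without KO EB replicate 1 (adjusted p between 0.0523 and 0.0665). Ptbp1 did not pass without WT EB replicate 1 (adjusted p = 0.0589). Ptbp1 and Rbm20 did not pass without WT EB replicate 2 (adjusted p between 0.051 and 0.0791). Ptbp2, Ptbp1, Mbnl1 and Rbm20 did not pass without the KO ESC library (adjusted p between 0.0793 and 0.121). Ptbp2, Ptbp1 and Rbm20 did not pass without the WT ESC library (adjusted p between 0.102 and 0.189).

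In the FGF pathway, whose ligand was in the medium, 10 of 25 ligand, receptor and ERK feedback genes rose and 2 fell (1 without KO EB replicate 1 or KO EB replicate 2, 0 without WT EB replicate 1, WT EB replicate 2 or either ESC library) (median 0.67). In the FGF and ERK feedback list, the number that rose was 6 without WT EB replicate 2, 2 without the KO ESC library and 0 without the WT ESC library. Dusp6, an ERK phosphatase induced by ERK itself, had 31.4 and 17.7 FPKM in KO EBs and 34.8 and 24 FPKM in WT EBs, against 3.72 in KO ESCs and 2.23 in WT ESCs (log2 difference 2.80 ± 0.32 SE, adjusted p = 0.00391). Fgfr3, a receptor, had 22.1 and 10.0 FPKM in KO EBs and 22.7 and 14.4 FPKM in WT EBs, against 1.65 in KO ESCs and 3 in WT ESCs (log2 difference 2.42 ± 0.35 SE, adjusted p = 0.00723). Spry4 rose and Spry2 fell, both feedback inhibitors of receptor signalling (log2 differences 1.08 and -0.90). Spry4 did not pass without KO EB replicate 1 or KO EB replicate 2 (adjusted p between 0.0517 and 0.0538). Spry2 did not pass without WT EB replicate 1 (adjusted p = 0.057). Spry4 and Spry2 did not pass without WT EB replicate 2 (adjusted p between 0.0551 and 0.0668). Fgfr3, Spry4 and Spry2 did not pass without the KO ESC library (adjusted p between 0.0834 and 0.159). Dusp6, Fgfr3, Spry4 and Spry2 did not pass without the WT ESC library (adjusted p between 0.054 and 0.191).

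Of 21 Notch genes 8 rose and 0 fell (median 0.83). Nrarp, a feedback inhibitor, had 9.28 and 4.81 FPKM in KO EBs and 10.4 and 6.73 FPKM in WT EBs, against 1.15 in KO ESCs and 1.83 in WT ESCs (log2 difference 1.79 ± 0.31 SE, adjusted p = 0.0113). Of 12 Hedgehog genes 5 rose (3 without KO EB replicate 1, 1 without the KO ESC library, 0 without the WT ESC library) and 1 fell. Gli1, a target of the pathway, had 4.93 and 5.39 FPKM in KO EBs and 5.4 and 3.02 FPKM in WT EBs, against 1.43 in KO ESCs and 0.451 in WT ESCs (log2 difference 1.57 ± 0.27 SE, adjusted p = 0.0111), and Gli2, a mediator, fell (log2 difference -1.39 ± 0.16 SE, adjusted p = 0.00424). Of 26 Nodal and BMP genes 9 rose (2 without either ESC library) and 3 fell. Id1, a BMP target, had 25.4 and 23.4 FPKM in KO EBs and 57.8 and 55.2 FPKM in WT EBs, against 9.22 in KO ESCs and 13.6 in WT ESCs (log2 difference 1.64 ± 0.18 SE, adjusted p = 0.00341), and the ligands Bmp2, Bmp4 and Bmp7 rose by 1.93, 1.95 and 2.00. In the Notch list, the number that rose was 2 without KO EB replicate 1, 5 without WT EB replicate 1, 5 without WT EB replicate 2, 0 without the KO ESC library and 1 without the WT ESC library. Nrarp, Gli1, Gli2, Bmp4 and Bmp7 did not pass without the KO ESC library (adjusted p between 0.0524 and 0.104). Nrarp, Gli1, Bmp2, Bmp4 and Bmp7 did not pass without the WT ESC library (adjusted p between 0.0531 and 0.126).

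Of 29 Wnt feedback genes 5 rose (10 without KO EB replicate 2, 2 without WT EB replicate 1 or either ESC library, 3 without WT EB replicate 2) and 4 fell (1 without KO EB replicate 1, WT EB replicate 2 or either ESC library, 2 without WT EB replicate 1) (median 0.82). Fzd7, a receptor, rose (log2 difference 1.79 ± 0.17 SE, adjusted p = 0.00249) and Tcf7l1, a repressor of the pathway in ESCs, fell (log2 difference -1.94 ± 0.20 SE, adjusted p = 0.00287). For retinoic acid, 8 of 19 rose (4 without KO EB replicate 1 or WT EB replicate 2, 5 without WT EB replicate 1, 2 without either ESC library) and 3 fell (0 without the KO ESC library, 1 without the WT ESC library). Aldh1a2, the enzyme that makes it in the embryo, had 0.176 and 0.519 FPKM in KO EBs and 0.599 and 0.755 FPKM in WT EBs, against 2.98 in KO ESCs and 3.74 in WT ESCs (log2 difference -1.54 ± 0.21 SE, adjusted p = 0.0062). Crabp2, its carrier to the nucleus, had 60.5 and 7.33 FPKM in KO EBs and 81.6 and 35.6 FPKM in WT EBs, against 1.47 in KO ESCs and 1.45 in WT ESCs (log2 difference 3.84 ± 0.83 SE, adjusted p = 0.0218). Rbp4, given above as a visceral endoderm gene, is also on the retinoic acid list, where it had the largest difference (5.35). Aldh1a2 and Crabp2 did not pass without the KO ESC library (adjusted p between 0.0539 and 0.11). Crabp2 did not pass without the WT ESC library (adjusted p = 0.202).

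Remaining lists gave fewer calls. In the endothelium and blood list, those that rose included Sox17 and Sox7, given above as endoderm factors. Eng and Tie1, also on that list, fell. Of 12 LIF signalling genes 2 rose (0 without KO EB replicate 1, WT EB replicate 2 or the KO ESC library, 1 without KO EB replicate 2 or the WT ESC library) and 2 fell (0 without any 1 library other than KO EB replicate 2). Of 20 endothelium and blood genes 3 rose and 4 fell (2 without the KO ESC library, 1 without the WT ESC library). Of 14 trophoblast genes 2 rose (4 without KO EB replicate 2, 0 without either ESC library) and 0 fell. Ribosomal protein genes gave 9 that rose (3 without WT EB replicate 2, 1 without either ESC library) and 3 that fell (1 without either ESC library) of 39, and housekeeping genes 1 that rose and 4 that fell (2 without WT EB replicate 2 or the KO ESC library, 1 without the WT ESC library) of 16. Serum response genes, early targets of growth factors, gave 7 that fell (3 without either ESC library) and 1 that rose of 19.

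Where the change differed between genotypes, no gene passed the test: 0 of 15090 (0%) with limma at an adjusted p under 0.05, and 810 (5.37%) at an unadjusted p under 0.05. This contrast had 2 residual degrees of freedom, and the lone ESC libraries were assumed to vary like the EB libraries. It does not show that the genotypes changed alike. The 3 lowest differences by size were Snora16a, Actc1 and Myl4. Snora16a, a small nucleolar RNA, had 52.5 and 55.8 FPKM in KO EBs and 21.1 and 22.3 FPKM in WT EBs, against 53.1 in KO ESCs and 0 in WT ESCs, so that its place rests on the library listed at 0 (adjusted p = 0.126). For Actc1, given above, the KO change was lower than the WT change (difference of changes -4.19 ± 1.51 SE on the log2 scale, adjusted p = 0.901). Myl4, an atrial myosin light chain, had 5.3 and 3.16 FPKM in KO EBs and 32.1 and 14.8 FPKM in WT EBs, against 7.38 in KO ESCs and 2.37 in WT ESCs (difference of changes -3.47 ± 0.78 SE on the log2 scale, adjusted p = 0.901).

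The 3 highest were a ribosomal RNA locus and pseudogenes of ribosomal proteins, whose reads can be shared with near-identical copies. Rn18s-rs5 had 492 and 30.9 FPKM in KO EBs and 0 and 14.1 FPKM in WT EBs, against 3.87 in KO ESCs and 0.928 in WT ESCs (difference of changes 3.68 ± 3.25 SE on the log2 scale, adjusted p = 0.928). KO EB replicate 1 stood apart from all others there. Rps2-ps10 had 2.6 and 1.37 FPKM in KO EBs and 0.267 and 0.452 FPKM in WT EBs, against 0.196 in KO ESCs and 4.68 in WT ESCs (difference of changes 3.36 ± 0.50 SE on the log2 scale, adjusted p = 0.901). Rps15a-ps3 had 1.94 and 0.727 FPKM in KO EBs and 0.214 and 1.23 FPKM in WT EBs, against 0 in KO ESCs and 6.54 in WT ESCs (adjusted p = 0.901), and its KO ESC library was the one listed at 0.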

How the data were processed

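Gene expression was measured by RNA sequencing of rRNA-depleted RNA in 10 libraries, of which the 4 EB and 2 ESC libraries entered the tests. The deposited table holds FPKM values for 46955 loci, which the authors computed per gene with Cufflinks 2.2.1 (strand-specific, first strand) from paired-end reads of 75 bases that were trimmed and aligned to GRCm38 with STAR 2.5.2b after conversion with bcl2fastq 2.18.0.12. Whether the values were also rescaled between libraries is not given in the sources used here. Read totals are unknown, and relative depth was read from the steps between low values, so no counting intervals are given. Rows that Cufflinks merged carry several gene names (1062 rows), and values under such a row are named with their partners where described.

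FPKM values were transformed to log2(FPKM + 1) and fitted with limma 3.58.1 in R 4.3.3 (trend of variance with level, genotype and stage as terms, 3 residual degrees of freedom). Rows needed 1 FPKM in 2 or more of the 6 libraries. A second fit with 4 group means tested whether the change differed between genotypes. Lists were counted and figures drawn in Python 3.11.15 with pandas 2.3.3, numpy 2.4.6 and matplotlib 3.10.9. The fitting code was tested on simulated data.

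Genes were named by rule: the 15 highest and 15 lowest differences past the threshold without overlap of the groups, leaving out merged rows, predicted genes and loci under 300 bases; up to 4 members with the lowest p of each list; and the 3 highest and 3 lowest genotype differences. The text describes part of the genes that this rule names, and the rest are not reported here. The members and lists were chosen with earlier results of these data known, and the interferon-stimulated, inflammatory, leukocyte and Y chromosome lists, and further members outside the rule, after the values were seen. Alternatives covered the pseudocount, the filter, the scaling between libraries, short loci, the libraries in the fit, a replicate block and the omission of each library.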

Additional observations from a re-analysis of the deposited data

Results flagged for a closer look

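Of the 15090 genes tested, 1442 had both EB libraries of one genotype above the ESC library of that genotype and both EB libraries of the other below theirs, and 0 of these were among the 4199 that changed. The fit itself favours this absence, since opposite changes in the genotypes count as residual spread. The genes named by rule held 3 of the 1442. Myl4, an atrial myosin light chain, was lower in KO EBs than in the KO ESC library and higher in WT EBs than in the WT ESC library, with a KO change minus WT change of -3.47 on the log2 scale. The ribosomal protein pseudogenes Rps2-ps10 and Rps15a-ps3 had the opposite pattern, with 3.36 and 3.37, and the value of Rps15a-ps3 rests on a KO ESC library listed at 0. In the limma test of the difference itself the adjusted p was 0.901 for each of the 3, so none passed.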

How the results depend on the processing

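The count of 4199 genes that changed between EBs and ESCs (1963 higher, 2236 lower) lay between 898 and 3790 when 1 library at a time was omitted, with 291 to 1796 higher and 550 to 1994 lower, and was lowest without an ESC library. It was 6754 (3387 higher, 3367 lower) with all 10 libraries in the fit, and 1221 were higher without the filter on low values. With the replicate number as a block, 5539 genes passed. The numbers were not used as pairs, since the labels name no shared culture or day and only 2 pairs exist, whose replicate differences correlated across genes with r = 0.42. The block moved the neural progenitor genes that rose to 21 of 25 (8 without it). Of 59 lists, 14 had more calls in the other direction in at least 1 alternative, 11 of them when 1 library was left out. In 7 lists another alternative did so, given as higher and lower calls: early neurons (reported 3 and 4) with a pseudocount of 0.1 (4 and 3), all 10 libraries (7 and 5) and the replicate block (5 and 4), neural crest (5 and 3) without the filter (1 and 2), endothelium and blood (3 and 4) with a filter at 5 FPKM (3 and 2), Wnt feedback (5 and 4) with that filter (2 and 3) and with 4 group means (3 and 4), oxidative stress (5 and 3) with the replicate block (5 and 8), SR proteins (2 and 4) with quantile normalization (3 and 1) and long noncoding RNAs (4 and 3) with median scaling (3 and 4). No gene that passed both in the reported fit and in an alternative changed its sign. The genotype difference of 0 genes became 3 with a pseudocount of 0.1 (1 higher, 2 lower), 1 (higher) with a filter at 5 FPKM, 1 (higher) with median scaling, 1 (higher) with the replicate block and 15 (9 higher, 6 lower) with all 10 libraries. It stayed 0 without any single EB library, and leaving out an ESC library gives no value for it. Of 3589 alternative values of 226 named genes, 372 no longer passed, 30 newly passed and 2 turned direction, both of mt-Nd6, a mitochondrial gene: 0.065 with quantile normalization and, without single libraries, between -0.32 and 0.11. In those alternatives the cause was not tested. Depth limits the lowest genes, since the ESC libraries were the shallowest, and 1 library per ESC group limits every p-value.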
